A study of Mus musculus with 6 samples.

Results

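The cornified envelope gene cluster is the stretch of mouse chromosome 3, also named the epidermal differentiation complex, that codes for structural proteins of the outer skin. Its members were chosen by name from the gene annotation: every symbol that begins with Lce or Sprr, together with Lor, Ivl, Flg, Flg2, Hrnr, Rptn, Tchh, Tchhl1, Crnn, Crct1, Kprp, Pglyrp3 and Pglyrp4. This gave 51 genes of the 55487 in the count table. They lie between position 90726906 (the start of Pglyrp4) and position 93471980 (the end of Tchhl1) of chromosome 3 on GRCm38, a span of 2.75 Mb. The rule itself uses gene names alone.

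When a keratinocyte leaves the basal layer and moves toward the skin surface it replaces its plasma membrane with an insoluble protein shell, the cornified envelope. Transglutaminases cross-link loricrin (Lor), involucrin (Ivl), small proline-rich proteins (Sprr genes) and late cornified envelope proteins (Lce genes) into this shell. Profilaggrin (Flg) and its relatives, which join an S100-type calcium-binding end to long repeats, fill the dying cell and bundle its keratins.

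RNA-Seq was run on rib cages of 6 mouse embryos at 16.5 dpc. The 3 controls (E420, E434 and E435) are labelled wild type, and the 3 mutants (E423, E433 and E440) are labelled Col2-cre;Foxc1-/-;Foxc2-/-. In the mutants a Cre recombinase driven by Col2 regulatory sequence, which is active in the developing skeleton, deletes the transcription factor genes Foxc1 and Foxc2. By the cross described in the study's methods, every embryo inherited a floxed Foxc1 and a floxed Foxc2 allele from its mother, whichever group it is labelled as. The study's text describes its control embryos as negative for Cre, though not for these libraries by name, and whether a control carried a deleted allele is not given. The mice were of mixed background. The methods describe comparisons as made among littermates, but which of these embryos shared a litter is not given in the sources used here. Each library came from 1 embryo.

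The labelled genotypes and tissue were checked first. Foxc1 had 909, 1674 and 1175 counts in E420, E434 and E435, and 148, 414 and 162 counts in E423, E433 and E440. Foxc2 had 78, 219 and 156 counts in the same controls and 27, 49 and 34 in the mutants. For both genes the 3 mutant libraries lay below the 3 controls. The summed level of 7 chondrocyte markers was highest in E434, at 18720 counts per 1000000 counts (CPM), followed by E433 at 6641 CPM. It was 883 CPM in E420, 829 CPM in E435, 268 CPM in E423 and 254 CPM in E440. The summed level of 5 osteoblast markers ran from 10878 to 15932 CPM in controls and from 7800 to 8194 CPM in mutants, with no marker of either list at 0. Library totals ran from 37853988 to 47794799 counts, so that 3 counts, used as the floor for calling a gene detected, corresponded to between 0.0618 and 0.0764 CPM.

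The groups overlapped in the level of the basal keratins. The summed level of the basal keratinocyte keratins Krt5 and Krt14 was 638 CPM in E420, 1.88 CPM in E434, 680 CPM in E435, 1542 CPM in E423, 341 CPM in E433 and 1522 CPM in E440. E434 thus stood far below the other 5 libraries, and E433 lay below 2 of the 3 controls. The chondrocyte markers ran in the opposite order, highest in E434 and E433 and lowest in E423 and E440, and their part in the results that follow was not tested. In bulk RNA, fewer cells of a type and less RNA per cell cannot be told apart. A pair of controls, E420 with E435, and a pair of mutants, E423 with E440, were also much closer to each other than any other libraries were. Over genes with at least 200 counts in a pair, the SD of the log2 ratio was 0.153 and 0.132 in these pairs, against 0.471 to 1.37 in the 13 others. The mean chi-square per gene was 10.98 and 3.79 in these pairs, against 87.0 to 487 in the others. Sampling alone gives a value above 1 here, because both ends of a read pair were counted, and repeat libraries of 1 RNA can also exceed it, so these values do not show that the paired libraries are independent. All 6 were kept as samples because the labels name 6 embryos. The labels do not say how the pairs arose.

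Promoters of the member genes are shown first because the gene families described below differ in the letters before their start sites. RefSeq promoters on GRCm38.p6 were matched by symbol for 43 of the 51 members. Each window below covers 80 bases before the start site and the first 20 bases after it, read on the gene's own strand. Capitals mark a TATA-type box (TATAAA, or the same letters with A or G in first place), the letters GTCTCACA, and the AP-1 motif TGANTCA. Boxes and GTCTCACA were looked for on the gene's strand only, the boxes between 60 and 16 bases before the start. The plus-strand windows are Sprr2d at chr3:92339060-92339159, Lce3d at chr3:92957310-92957409, Lce3f at chr3:92992137-92992236, Flg at chr3:93273466-93273565 and Hrnr at chr3:93319669-93319768. The minus-strand windows are Lor at chr3:92083123-92083222, Lce1b at chr3:92656907-92657006, Lce1d at chr3:92687191-92687290, Lce1h at chr3:92765046-92765145 and Lce1m at chr3:93019042-93019141.
Lor: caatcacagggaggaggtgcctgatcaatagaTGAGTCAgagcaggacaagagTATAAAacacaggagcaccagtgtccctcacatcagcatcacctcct
Sprr2d: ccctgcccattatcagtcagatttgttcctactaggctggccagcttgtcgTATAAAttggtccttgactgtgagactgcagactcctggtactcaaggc
Flg: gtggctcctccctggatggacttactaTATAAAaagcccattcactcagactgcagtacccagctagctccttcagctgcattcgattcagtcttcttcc
Hrnr: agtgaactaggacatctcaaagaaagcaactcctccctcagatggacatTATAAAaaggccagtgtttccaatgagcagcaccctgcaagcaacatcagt
Lce1b: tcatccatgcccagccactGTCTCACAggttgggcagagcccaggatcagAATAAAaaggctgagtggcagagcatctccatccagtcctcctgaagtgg
Lce1d: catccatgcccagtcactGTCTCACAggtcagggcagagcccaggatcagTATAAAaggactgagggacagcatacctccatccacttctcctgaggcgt
Lce1h: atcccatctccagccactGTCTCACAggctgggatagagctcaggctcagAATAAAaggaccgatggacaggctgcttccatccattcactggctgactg
Lce1m: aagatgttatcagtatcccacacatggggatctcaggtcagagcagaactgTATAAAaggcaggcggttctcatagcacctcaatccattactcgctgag
Lce3d: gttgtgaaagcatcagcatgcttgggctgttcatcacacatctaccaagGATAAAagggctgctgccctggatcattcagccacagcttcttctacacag
Lce3f: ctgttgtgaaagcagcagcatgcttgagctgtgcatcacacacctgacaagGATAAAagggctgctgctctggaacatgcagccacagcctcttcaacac

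The canonical TATAAA was found in 18 of the 43 member promoters and in 2.83% of all 27025 promoters in the table. It was spread unevenly, with 7 of 10 Sprr2 promoters, 3 of 4 other Sprr promoters, 4 of 7 S100-fused promoters, 2 of 13 Lce1 promoters and 0 of 6 Lce3 promoters. The Lce families carried a one-letter variant at the same place: AATAAA in 9 of 13 Lce1 promoters (1.82% of all promoters) and GATAAA in 5 of 6 Lce3 promoters (0.873%). The letters GTCTCACA, picked after reading these promoters, stood before the start site in 8 of 13 Lce1 promoters, in no other member, and in 0.459% of all promoters. Genes of 1 family share sequence, so their promoters are not independent of each other. Lce1m, the Lce1 gene that lies apart from the rest, had TATAAA and lacked GTCTCACA.

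The AP-1 motif TGANTCA was searched on both strands over 250 bases before and 50 after the start, and none of the other motifs searched contains it. It was present in 16 of the 43 member promoters, against 7.93% of all promoters. It was found in 7 of 10 Sprr2, 2 of 4 other Sprr and 5 of 7 S100-fused promoters, in those of Lor and Ivl, and in none of the 13 Lce1 or 6 Lce3 promoters. The Grainyhead-like motif AACCNGTT was found in 1 member promoter (2.01% of all), the C/EBP motif TTGCNNAA in 5 (10.8% of all) and the KLF motif GGGNGTGG in 3 (17.6% of all). These are matches of letters and say nothing of binding.

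The number of members with more than 3 counts was 25 in E420, 9 in E434, 24 in E435, 46 in E423, 22 in E433 and 46 in E440. The members took 0.190%, 0.00104% and 0.219% of all counts in the 3 controls and 1.06%, 0.112% and 1.10% in E423, E433 and E440. Summed over members, the controls had 1830, 10.8 and 2098 CPM, and the mutants in the same order had 11135, 1084 and 11440 CPM. The mutant E433 therefore sat below the controls E420 and E435 in all 3 measures, and the groups overlapped.

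**Figure D1:**
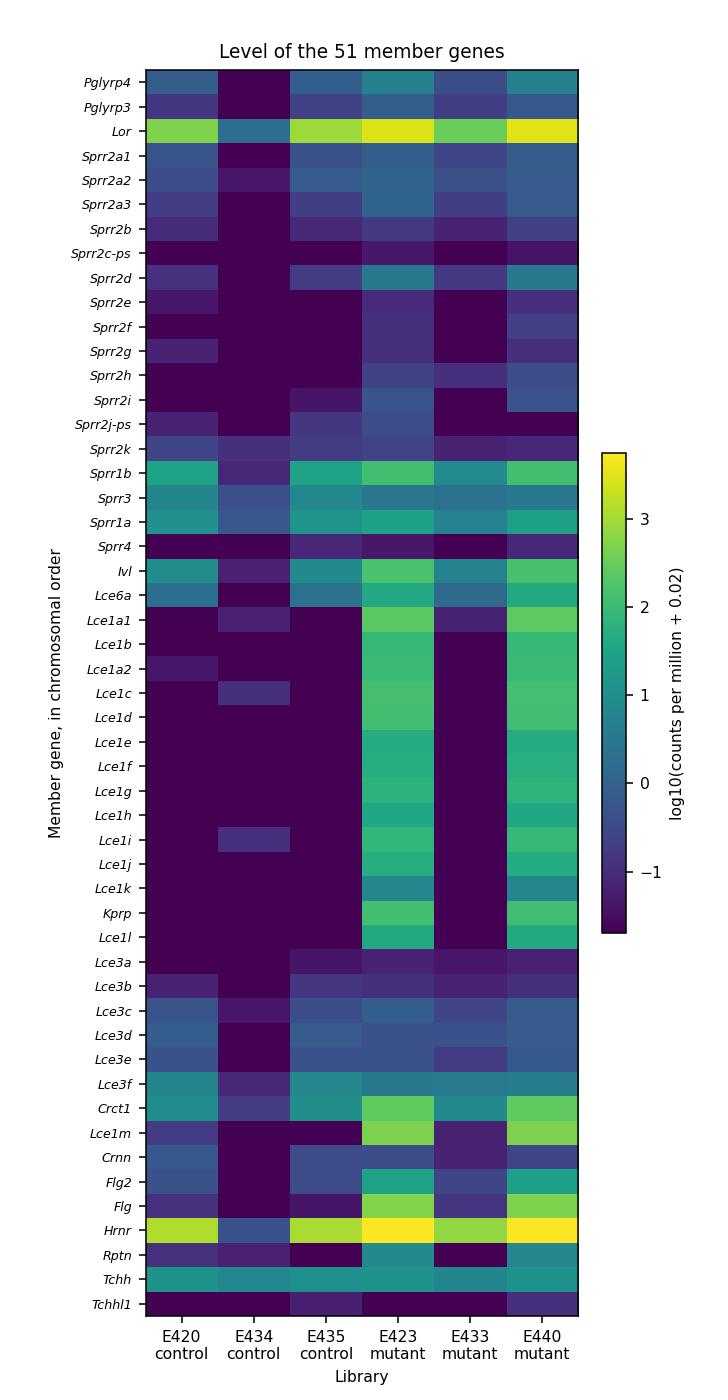
Level of the 51 members in each library as log10(CPM + 0.02), genes in chromosomal order from top to bottom and libraries in columns. The run from Lce1a1 to Lce1l is bright in E423 and E440 and at or near 0 in the other 4 libraries, Lor and Hrnr are high in all libraries but E434, and Tchh is about even across all 6.

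Members fell into a few patterns of detection. A set of 6 (Lor, Sprr3, Sprr1a, Crct1, Hrnr and Tchh) passed 3 counts in all 6 libraries. Another 14 passed it in every library but E434: Pglyrp4, Pglyrp3, Sprr2a1, Sprr2a2, Sprr2a3, Sprr2d, Sprr1b, Ivl, Lce6a, Lce3c, Lce3d, Lce3e, Lce3f and Flg2. RSEM gave Lce3c, Lce3d and Lce3e 0 counts in E420, E435 and E433. A set of 16 passed 3 counts in E423 and E440 alone, namely 11 Lce1 genes, Kprp, Sprr2b, Sprr2f, Sprr2g and Sprr2i. Of this set, Sprr2b, Sprr2f and Sprr2g had at most 9 counts in any library. Sprr2i had 21 and 22 counts in E423 and E440, where RSEM gave 1 and 0. Sprr2c-ps, Sprr4 and Lce3a passed 3 counts in no library, and the other 12 members had mixed patterns that rest on low counts outside E423 and E440. For some of these, such as Sprr2e and Tchhl1, the counts in E423 and E440 were low too. Every embryo was of the same labelled stage, so these are patterns across libraries and not a time course.

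Loricrin, the main protein of the finished envelope, was the highest member per transcript length in every library but E434. RSEM gave it 428 TPM (transcripts per 1000000 transcripts) in E420, 1.62 in E434 and 765 in E435, and 2176, 298 and 2530 TPM in E423, E433 and E440. In counts it had 19567, 82 and 43735 in the controls and 112239, 14056 and 143779 in the mutants. E433 was below E420 and E435, so the groups overlapped, and the log2 fold change of 2.13 ± 1.65 (SE, n = 3 against 3) had an adjusted p of 0.680 in edgeR's quasi-likelihood test. Lor also differed 1.81-fold in CPM between the otherwise close controls E420 and E435. It made up 66.9% and 78.5% of all member TPM in these controls and 72.5% in E433, but 30.6% in E423 and 33.8% in E440.

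Involucrin, an early scaffold of the envelope, had 391, 2 and 386 counts in E420, E434 and E435, and 6328, 236 and 6611 in E423, E433 and E440. Cysteine-rich C-terminal 1 (Crct1) had 343, 8 and 471 counts in the controls and 11002, 328 and 12305 in the mutants. Lce6a, a single Lce gene next to Ivl, had 74, 0 and 104 counts against 1628, 64 and 1845. In all 3 genes E423 and E440 were well over 10 times the level of any other library in counts, while E433 lay below E420. The log2 fold changes were 4.07 ± 1.62 for Ivl, 4.86 ± 1.63 for Crct1 and 4.32 ± 1.56 for Lce6a, with edgeR adjusted p-values of 0.459, 0.416 and 0.429. The peptidoglycan recognition proteins Pglyrp3 and Pglyrp4, which bind bacterial cell walls, were low in every library, with at most 36 and 217 counts.

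**Figure D2:**
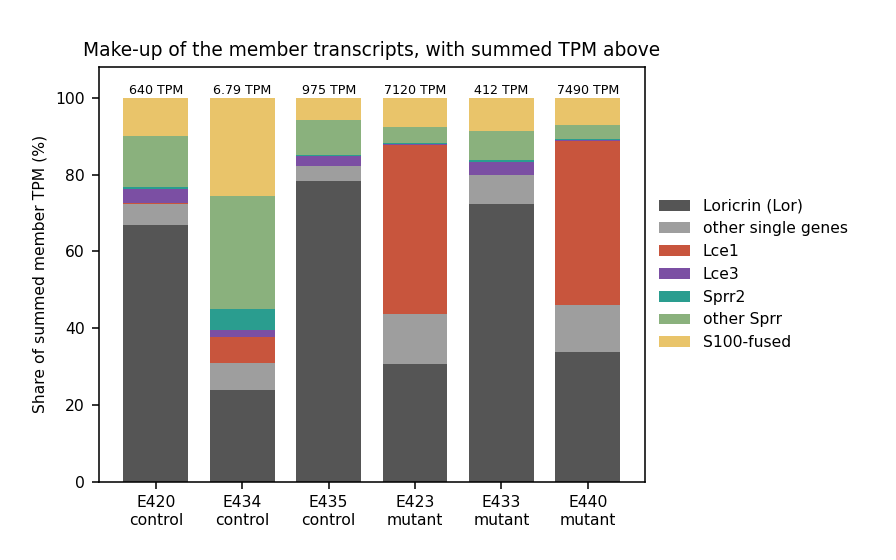
Share of the summed member TPM taken by Lor, by the other single genes and by each family in each library, with the summed TPM written above each bar. Lce1 genes hold 44.2% and 42.7% in E423 and E440 and under 0.1% in E420, E435 and E433. E434 sums to only 6.79 TPM, so its shares rest on few reads.

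The Lce1 family showed the sharpest split between libraries. Each of its 14 genes had between 269 and 19450 counts in E423 and between 303 and 21975 in E440. In the other 4 libraries the 14 genes together had 21 counts, no gene had more than 6, and 9 genes had 0 in all 4. Among the 12 genes at 0 in E433, featureCounts put E423 at least 93.0-fold (Lce1k) to at least 1943-fold (Lce1c) above E433. The floor in E433 was taken as 3 counts. For Lce1k in E423, RSEM gave 31.2 counts where featureCounts gave 269, so its bound holds for featureCounts alone. Lce1m, the highest of the family by TPM, had 6, 0 and 0 counts in the controls and 19450, 2 and 21975 in E423, E433 and E440. Lce1a1 had 0, 2 and 0 counts in the controls and 9820, 2 and 11203 in the mutants. The mutant E433 was thus at the level of the controls. The family summed to 3146 TPM in E423 and 3202 TPM in E440, and to 0.45 TPM or less elsewhere.

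The split followed the map of the chromosome in part. From Lce1a1 to Lce1l, 13 Lce1 genes and Kprp lie in 205 kb (positions 92646535 to 92851286), with no other member between them. Kprp, a keratinocyte proline-rich protein of the upper epidermis, had 0 counts in all 3 controls and in E433, 5307 in E423 and 5372 in E440. Lce1m lies 167 kb beyond Lce1l, on the far side of the 6 Lce3 genes and Crct1, and had the same pattern as the block. The Lce3 genes between them did not.

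In featureCounts the Lce3 genes were detected at low counts in most libraries that held keratins. In E420, E435 and E433, RSEM gave counts to Lce3f alone among them. Lce3f, the highest of them, had 240, 3 and 317 counts in E420, E434 and E435, and 131, 141 and 178 in E423, E433 and E440. The summed level of the 6 genes was 7.89, 0.0882 and 8.29 CPM in the controls, and the mutants E423, E433 and E440 had 5.003, 4.20 and 6.13 CPM. Every mutant library therefore lay below E420 and E435 but above E434. The log2 fold change of Lce3f was -0.30 ± 1.08, with an edgeR adjusted p of 0.938.

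Among the Sprr genes, Sprr1b and Sprr1a were the most abundant. Sprr1b had 1105, 3 and 1305 counts in the controls and 5316, 359 and 5839 in E423, E433 and E440. Sprr1a had 436, 27 and 635 counts in the controls and 1088, 227 and 1127 in the same mutants. For both genes E433 was below E420 and E435 and above E434. Their log2 fold changes were 2.25 ± 1.56 and 1.17 ± 1.03, with edgeR adjusted p-values of 0.643 and 0.717. Sprr3, known best from oral and oesophageal epithelium, ran the other way, with 247, 18 and 335 counts in the controls and 120, 96 and 141 in the mutants. Its log2 fold change was -0.73 ± 0.84 and its edgeR adjusted p 0.786. E434 was the lowest library for all 3 genes.

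The 13 Sprr2 genes were near the floor. Summed over the family, the controls had 1.58, 0.110 and 1.90 CPM, and E423, E433 and E440 had 7.94, 1.18 and 7.02 CPM. By RSEM TPM the highest was Sprr2d in E423 and E440 and Sprr2a2 in the libraries E420, E435 and E433. Sprr2d had 4, 0 and 8 counts in the controls and 129, 6 and 149 in the mutants, with E433 again among the controls. Sprr2k, at the edge of the Sprr2 row, had 10, 4 and 8 counts in the controls and 10, 2 and 3 in the mutants, so its groups overlapped. Reads of Sprr2a1, Sprr2a2 and Sprr2a3 cannot be assigned with certainty, since their sequences are largely shared.

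The S100-fused genes divided into those with counts in most libraries and those found almost wholly in E423 and E440. Hornerin (Hrnr), a filaggrin-like protein, had 48824, 20 and 53711 counts in the controls and 231374, 30809 and 254627 in the mutants. The log2 fold change was 2.33 ± 1.87, with an edgeR adjusted p of 0.692, and E433 lay below E420 and E435. Filaggrin had 4, 0 and 1 counts in the controls and 22712, 5 and 22215 in the mutants. Flg and Hrnr thus differed in E420, E435 and E433, where Hrnr had 30809 counts or more and Flg 5 or fewer. Flg2 had 17, 0 and 17 counts in the controls and 1183, 11 and 1113 in the mutants. Repetin (Rptn), another envelope precursor, had 4, 2 and 0 counts against 314, 0 and 308.

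Trichohyalin (Tchh), which hardens the inner root sheath of hair, was the most evenly counted member. It had 461, 309 and 513 counts in the controls and 520, 274 and 542 in the mutants. In E434, where Krt5 and Krt14 were nearly missing, its level of 6.82 CPM was above the 6.36 CPM of E433. The log2 fold change was 0.07 ± 0.31, with an edgeR adjusted p of 0.951. Keratins of the inner root sheath were near the floor of 3 counts, with at most 5 counts for Krt25, 3 for Krt27 and 11 for Krt71 in any library. Cornulin (Crnn), an envelope protein also of oral epithelium, had 24, 0 and 16 counts in the controls and 16, 2 and 12 in the mutants, and Tchhl1 had at most 4.

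The comparison the design asks is whether members differed between the 3 mutants and the 3 controls. Of the 51 members, 46 had the 10 summed counts needed for testing, and 24 of these had under 10 counts over the controls, so that they passed through the mutant libraries. With edgeR, 0 of the 46 passed an adjusted p of 0.1 with a log2 fold change of at least 1 in either direction. Over all 26596 genes tested, 0.0338% passed as higher in mutants and 0.0301% as lower. The lowest adjusted p of a member was 0.326, for Flg. At an unadjusted p under 0.05 there were 26 members, where 10.6% of all genes reached it. Of these 26, 19 had under 10 counts over the controls, and 7 were among the other 22 members (Pglyrp3, Sprr2a3, Sprr2d, Ivl, Lce6a, Crct1 and Flg2). Of the 46, 42 had a log2 fold change above 0. Their median was 4.43, or 2.54 when the 17 members with no control library over 3 counts were set to the bound that 3 counts per library allow, against 0.01 over all genes tested. Over the 22 members with 10 or more counts in the controls the median was 1.65, and 18 were above 0. The groups were apart in 4 members that were tested (Sprr2a3, Sprr2h, Lce1a1 and Flg), all higher in mutants, against 6.81% of all genes. In all 4 the gap was small. It was between 2 counts in E434 and 2 in E433 for Lce1a1, between 4 counts in E420 and 5 in E433 for Flg, and between 0 counts in the controls and 4 in E433 for Sprr2h. For Sprr2a3 the control E435 had 9 counts and the mutant E433 had 8, so its groups were apart only after scaling. No member was lower in every mutant than in every control, against 8.21% of all genes.

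These calls turned on 1 library and on the tool. When DESeq2 was used with its Wald test, it called 18 members higher in mutants and 0 lower, out of 40 with an adjusted p, where 1.62% of all genes were called higher. The 18 were 13 Lce1 genes, Kprp, Crct1, Flg, Flg2 and Sprr2d, of which 3 had 10 or more counts over the controls. With edgeR and without E433, 24 of 46 members were called higher and 0 lower, where 2.84% of all genes were called higher. Of these 24, 19 had under 10 counts over the controls, and 5 were among the 22 members with 10 or more. That fit compares E423 and E440, which are close to each other, with the 3 controls. Leaving out E434 instead gave 0 calls among the members, where 0.0308% of all genes were called higher.

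Level was then set against the basal keratins, so that libraries with more RNA of these keratins could be compared with those with less. Per 100 CPM of Krt5 and Krt14, the members summed to 287 CPM in E420, 309 in E435, 318 in E433, 722 in E423 and 752 in E440. Most of each sum was Hrnr and Lor. On this scale E433 lay just above E420 and E435, and E423 and E440 stood apart from all 3. The order of E420, E435 and E433 rests on featureCounts, in which the repeats of Hrnr raise its count. By RSEM the members summed to 1049, 1424 and 617 CPM in E420, E435 and E433. Whether E433 keeps its place with RSEM counts was not tested. In E434 the keratins summed to 1.88 CPM, too little for such a ratio. Since every member is divided by the same keratins, these ratios are a description and were not tested. With the log2 level of both keratins as a covariate in edgeR, 1 member was called higher in mutants (Lce6a, log2 fold change 1.65, adjusted p 0.0258) and 0 lower, where 0.109% of all genes were called higher. E434 was kept in this fit, although its keratins were far below those of every other library. How far the fit rests on E434 was not tested. In that fit the log2 fold change was 0.43 for Lor, 0.55 for Hrnr, 0.0079 for Sprr1a, 0.094 for Sprr1b, 1.44 for Ivl, 2.36 for Crct1, 2.06 for Sprr2d and 6.36 for Flg, each less than without the covariate. For Sprr3 and Lce3f it was -1.46 and -0.99, farther below 0 than without it.

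Of the 21 members with more than 3 counts in each of E420, E435, E423 and E440, 11 were higher per keratin in both mutants than in both controls, 9 were lower and 1 (Sprr2a2) was mixed. Division by the keratins, which were higher in these mutants, lowers a gene of even CPM. Tchh, among the 9, had 11.7 and 10.6 CPM in E420 and E435 and 12.5 and 11.7 CPM in E423 and E440. RSEM gave Lce3c, Lce3d and Lce3e, also among the 9, 0 counts in E420 and E435, so their ratios rest on featureCounts alone. It gave Sprr2a1, another of the 9, 0 counts in E423. The ratio of E423 or E440 to E420 or E435 ran from 1.32 to 2.62 for Lor, from 1.85 to 2.23 for Hrnr and from 1.88 to 2.102 for Sprr1b. It was larger for Ivl (6.04 to 8.43), Lce6a (8.05 to 8.90), Sprr2d (8.30 to 13.3), Crct1 (12.02 to 12.8) and Flg2 (23.4 to 35.8). It was close to 1 for Sprr1a, at 0.83 to 0.98. It was low for Sprr3 (0.18 to 0.20), Lce3f (0.21 to 0.26), Lce3d (0.22 to 0.42) and Crnn (0.18 to 0.51).

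**Figure D3:**
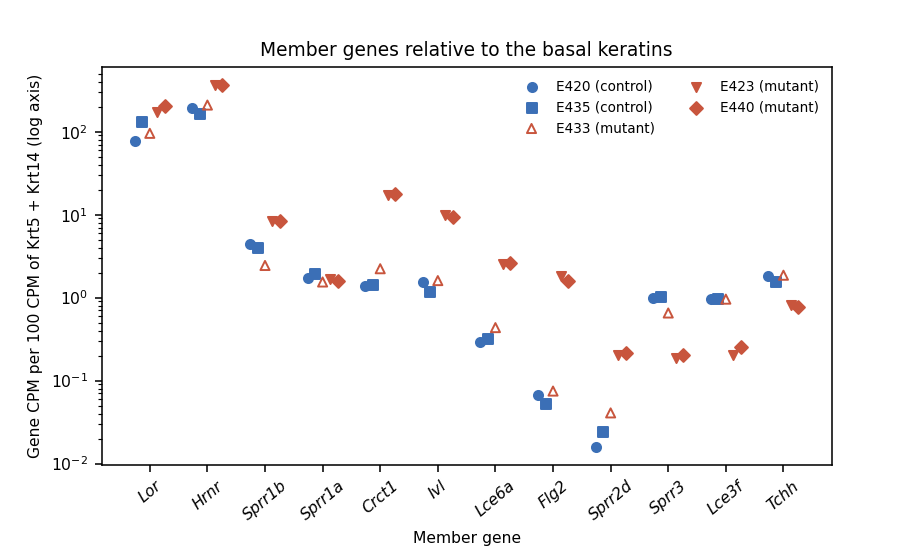
CPM of 12 members per 100 CPM of Krt5 and Krt14 in the 5 libraries with keratins, on a log axis, controls in blue and mutants in red with E433 as open triangles. E423 and E440 lie above the other 3 libraries for Crct1, Ivl, Lce6a, Flg2 and Sprr2d and below them for Sprr3, Lce3f and Tchh. Tchh had similar CPM in E420, E435, E423 and E440, so its place reflects the higher keratins of E423 and E440.

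Other genes of the same program were taken as 6 lists of 70 genes, of which 69 were tested. None was called by edgeR, while DESeq2 called 3 higher (Klk7, Cdsn and Prdm1) and 0 lower, where 1.62% of all genes were called higher. With edgeR and without E433, 10 were called higher and 0 lower, where 2.84% of all genes were called higher. In the list of enzymes that cross-link and process the envelope, 0 of 14 tested genes were called and the median log2 fold change was 1.80. Its most abundant members were Asprv1, a protease that processes profilaggrin, at 327, 1.41, 342, 1742, 158 and 1718 CPM, and Blmh, a hydrolase that breaks filaggrin into amino acids, at 236, 142, 248, 745, 176 and 755 CPM, in the order E420, E434, E435, E423, E433 and E440. Among other envelope and corneodesmosome proteins (0 of 13 called, median 1.35), the highest were Dmkn, with 594, 0.75, 656, 1663, 312 and 1716 CPM in that order, and Perp, a desmosome protein, with 522, 3.33, 538, 903, 208 and 914 CPM.

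The suprabasal keratins (0 of 6 called, median 2.41) were led by Krt10, with 2332, 6.46, 2594, 11908, 1397 and 12045 CPM in the order E420, E434, E435, E423, E433 and E440. Krt1, its partner, had 1519, 1.13, 1648, 10188, 972 and 9857 CPM. The basal keratinocyte genes (0 of 9 called, median 0.71) were led by Krt5 and Krt14. Transcription factors of epidermal differentiation (0 of 14 called, median 0.81) were led by Klf4, at 176, 78.8, 174, 292, 117 and 294 CPM, and by Maf, at 95.9, 103, 98.8, 106, 78.9 and 104 CPM. The S100 genes on the same chromosome (0 of 13 called, median -0.08) were led by S100a10, at 228, 177, 253, 213, 197 and 204 CPM, and S100a14, at 99.7, 0.397, 103, 254, 49.7 and 271 CPM. E423 and E440 were the highest libraries for Krt10, Krt1 and S100a14, and E434 the lowest.

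Per keratin, few of these genes differed as widely as the Lce1 block. A gene at the same CPM in both libraries gets a ratio well below 1, because the keratins were at 638 CPM in E420 and 1542 CPM in E423. S100a10, at 228 and 213 CPM, had a ratio of 0.387. In E434, where the keratins summed to 1.88 CPM, the S100 genes summed to 361 CPM and the transcription factors to 290 CPM. The share of these lists that came from skin was not tested. The ratio of E423 to E420 had a median of 1.43 over 14 processing enzymes, 0.934 over 13 envelope and corneodesmosome proteins, 2.22 over 5 suprabasal keratins, 0.698 over 9 basal genes, 0.682 over 14 transcription factors and 0.413 over 12 S100 genes. It passed 5 in 4 list genes, named here after their values were seen. Klk7, a protease that sheds corneocytes, had 46, 4, 42, 9942, 30 and 11133 counts in the order E420, E434, E435, E423, E433 and E440. Klk5, which activates Klk7, had 97, 0, 119, 2567, 68 and 2754 counts. Corneodesmosin (Cdsn), the adhesive protein they cut, had 159, 40, 154, 5723, 125 and 6078 counts. Cystatin A1 (Csta1), a protease inhibitor of the envelope, had 428, 4, 572, 7088, 316 and 7855 counts. In counts, E433 was lower than E420 and E435 in all 4 genes, as it was for Ivl and Lor. Per keratin, the ratio of E423 to E433 was 76.0 for Klk7, 8.66 for Klk5, 10.5 for Cdsn and 5.15 for Csta1. Each was below the ratio of E423 to E420 and to E435, so per keratin E433 lay above both controls. Per keratin E433 was also above both for Ivl and lay between them for Lor.

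**Figure D4:**
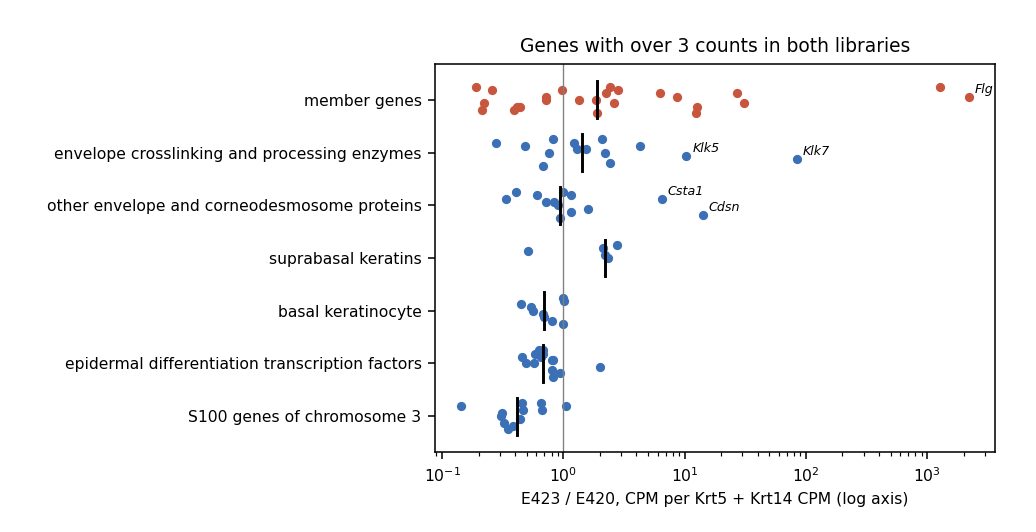
Ratio of E423 to E420 in CPM per CPM of Krt5 and Krt14, on a log axis, for each gene with more than 3 counts in both libraries, with the median of each list as a black bar. Klk7, Cdsn, Klk5 and Csta1 lie apart from the rest of their lists, Flg and Lce1m lie far to the right among the members, and the S100 genes have the lowest median (0.413). A gene of even CPM also falls to the left, because the keratins were higher in E423.

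Other genes in the interval were not all silent or all active with their neighbours. Of 49 genes between the first and last member that are no members, 23 were tested. By mean CPM over the 6 libraries the 3 highest were Gm4202, 2310050C09Rik and Gm9774. The level of Gm4202 was 64.3 ± 6.12 CPM in controls and 62.6 ± 2.92 CPM in mutants, and that of Gm9774 was 19.95 ± 0.137 and 24.6 ± 4.25 CPM (SD, n = 3 each). Gm4202, a processed pseudogene, lies inside the Lce1 block and was counted evenly in all 6 libraries. Reads of processed pseudogenes cannot be told from those of their parent genes with certainty. 2310050C09Rik, just beyond Lce1l, had 3432 and 3724 counts in E423 and E440 and 0 in the others. Gm38119, within the block and chosen after its values were seen, had 0 counts in all controls and in E433, 587 in E423 and 777 in E440.

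Because members repeat themselves and each other, counts from featureCounts were set beside RSEM's. In featureCounts each end of a read pair counts, so that the ratio over all genes was 1.95 to 1.96 in every library. In E423, 34 members had at least 10 RSEM counts, and their ratio had a median of 2.13. It was 5.22 for Hrnr, 4.13 for Flg and 2.66 for Flg2, in whose transcripts 69.3%, 80.6% and 67.1% of windows of read length (42 bases) occur again in the same transcript. It was 1.92 to 3.07 for Lce1 genes other than Lce1k, with up to 37.5% of windows also in another gene. The gene with 37.5%, Lce1i, had the lowest of these ratios. For Lce1k the ratio was 8.63, although 10.3% of its windows occur in another gene and 0% again in its own transcript. The Lce1 genes together had 63021 counts against 29866 RSEM counts in E423. For Lce3d, RSEM gave 1.19 counts over all libraries where featureCounts gave 139, and 54.0% of its windows occur in another gene. Sprr2a1 and Sprr2a2 overlap in the annotation and share 96.6% and 97.0% of their windows with other genes. The split of the Lce1 genes between libraries was the same in both pipelines, with 0.45 TPM or less over the family outside E423 and E440.

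**Figure D5:**
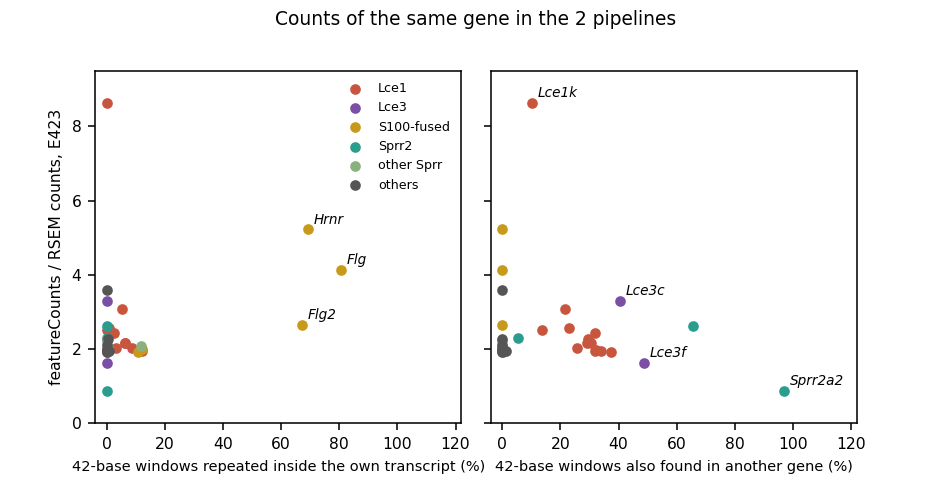
Ratio of featureCounts to RSEM counts in E423 for 34 members, against the percentage of 42-base windows repeated inside the gene's own transcript (left) and found in another gene (right), coloured by family. Hrnr, Flg and Flg2 combine repeats with ratios of 2.66 to 5.22, Lce1k stands highest at 8.63, and Sprr2a2 is lowest at 0.864.

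Markers of other tissues also differed between libraries, and their part in the results above was not tested. The 4 adipocyte markers summed to 126 to 140 CPM in controls and 191 to 578 CPM in mutants. Of the 4, 4 were higher in every mutant than in every control, against 6.81% of all genes tested. The 6 hepatocyte markers summed to 30.1 to 46.3 CPM in controls and 29.7 to 595 CPM in mutants, the highest being E433. The 5 skeletal muscle markers summed to 11895 to 18771 CPM in controls and 14505 to 25101 CPM in mutants. The 6 dermal fibroblast markers summed to 796 to 858 CPM in controls and 716 to 857 CPM in mutants, so that the sum did not share the range of the keratins. Within the list, Dpt and Twist2 were higher in every mutant than in every control, against 6.81% of all genes tested. Lum and Dkk1 were lower in every mutant, against 8.21% of all genes tested, and Crabp1 and Ebf2 overlapped. The 6 melanocyte markers summed to 8.34 to 20.8 CPM in controls and 18.8 to 46.6 CPM in mutants, with Dct, Tyrp1, Tyr and Mlana at 0 in E434 and Tyrp1 at 0 in E435. The 8 hair follicle markers summed to 1.39 to 46.6 CPM in controls and 22.9 to 169 CPM in mutants, with Krt71 at 0 in all controls and in E433 and Krt25 at 0 in E434 and E433.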

How the data were processed

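RNA-Seq of rib cage RNA was run by the authors on 6 libraries, and groups were taken from the genotype labels. The authors aligned reads to GRCm38 with HISAT2 2.1.0 and deposited counts per gene from featureCounts 1.6.0 on exons of GENCODE vM25, with no normalization. Each read end was counted, without strand, and a read with several alignments was counted once, at its primary one: 63 of 697 genes with a transcript identical to another gene's hold 10 or more counts. The authors also deposited expected counts and TPM per gene from STAR 2.7.6 and RSEM 1.2.31, in which reads shared by genes are divided between them. The deposited gene length was used for counts per kb. The authors' own DESeq2 comparisons, with fold changes and p-values, are in 2 more tables. They were not used, nor were the 12 columns of per-sample values in them. Symbols came from GENCODE vM21, in which all 51 members have the same coordinates.

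A minimum of 10 counts over all libraries was set for testing. TMM scaling and the quasi-likelihood test of edgeR 4.0.16 (glmQLFit, glmQLFTest) were run in R 4.3.3, with p-values adjusted by Benjamini-Hochberg over all genes and limits of 0.1 on adjusted p and 1 on log2 fold change. Each SE of a log2 fold change was computed back from the F statistic of the quasi-likelihood test. It is therefore not independent of the p-value. CPM are per TMM-scaled library. Alternatives were DESeq2 1.42.0, its size factors, other filters and limits, rounded RSEM expected counts and leaving out each library. Summing the close libraries and a keratin covariate were added after seeing the data. The members and lists were chosen with earlier results of these data known. Any member could be named, with the 2 most abundant genes of each list and the 3 most abundant neighbours. Libraries are single embryos. Bounds take in counting error alone, because copies of a fragment made by PCR were not marked.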

Additional observations from a re-analysis of the deposited data

How the results depend on the processing

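Calls among the members were 0 in both directions with edgeR and stayed at 0 with DESeq2's size factors, filterByExpr (18 members tested), no low-count filter (51 tested), RSEM expected counts (40 tested), an adjusted p limit of 0.05, no fold limit and the close libraries summed. Members called higher in mutants numbered 18 with DESeq2's Wald test, 0 to 24 when 1 library was left out and 1 with the keratin covariate (Lce6a). Epidermal list genes called higher in mutants numbered 3 with the Wald test, 0 to 10 when 1 library was left out and 1 with the keratin covariate (Klk5). The highest leave-one-out count in both cases was that without E433, and the cause was not tested. Calls of lower genes were 0 in all these fits. Members detected in E420 and E433 fell from 25 to 16 and from 22 to 13 with RSEM counts over 3, and those in E434 from 9 to 5 with a floor of 10 counts. The log2 fold changes of 12 named members gave 154 values over the alternatives, of which 139 kept the direction and side of the limits, 8 passed them and 7 changed sign. Size is not part of that count: with the keratin covariate 8 of the 12 came closer to 0 without a call or a change of sign, with the values given above. The sign changed for Tchh without E434 (-0.13), without E423 (-0.10), without E440 (-0.04) and with the keratin covariate (-0.27), and for Lce3f without E420 (0.06), without E435 (0.16) and with the close libraries summed (0.071). With 1 library left out, the ranges were -0.13 to 0.33 for Tchh, -0.88 to 0.16 for Lce3f, -1.27 to -0.28 for Sprr3, 1.55 to 3.04 for Lor, 1.74 to 2.83 for Hrnr, 0.62 to 1.68 for Sprr1a, 1.67 to 2.80 for Sprr1b and 3.49 to 4.65 for Ivl. No paired analysis was possible because no source used here says which embryos were littermates, and the embryo numbers are not shared between groups.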

Other observations

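Genes that were lower in E423 and E440 than in E420 and E435 without any keratin scaling included the members Sprr3 and Lce3f, given above. The genes that follow were chosen after their values were seen. Prr9, a proline-rich neighbour of Lor, had 45, 0 and 72 counts in E420, E434 and E435, and 21, 24 and 6 in E423, E433 and E440. A gene without a symbol in the tables used here, ENSMUSG00000118547.1, between Lor and the Sprr2 row (chromosome 3, 92195436 to 92197048), had 748, 0 and 875 counts in the controls and 30, 265 and 22 in the mutants. Away from the cluster, Krt4, a keratin of stratified epithelia that do not cornify, was at 121, 0.949 and 128 CPM in E420, E434 and E435 and at 13.5, 27.5 and 14.7 CPM in E423, E433 and E440. Krt13, its usual partner, was at 33.8, 0.154 and 40.4 CPM in the same controls and at 75, 5.89 and 73.3 CPM in the mutants, so that Krt4 and Krt13 ran in opposite order between E420 or E435 and E423 or E440. The edgeR adjusted p-values were 0.591 for Krt4 and 0.827 for Krt13. The 5 markers listed for other stratified epithelium (Krt4, Krt13, Krt6a, Krt6b and Krt16) together summed to 1.74 to 252 CPM in controls and 65.1 to 171 CPM in mutants.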
